A study of Gallus gallus with 14 samples.

Results

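A set of 6 genes that encode repressors of the circadian clock was followed across 14 chick retinas: the period genes PER2 and PER3, the cryptochrome genes CRY1 and CRY2, and BHLHE40 and BHLHE41, which encode basic helix-loop-helix repressors also called DEC proteins. They were taken by symbol from the deposited table, which held all 6 among 18631 genes, and all 6 passed the filter on low values. The retinas came from wild-type White Leghorn chicks. In the lens group (7 retinas) a lens of -10 D was worn in front of the eye for 6 days before collection, fitted at 3 days of age. The other 7 retinas are labelled as controls, and the labels do not say whether these eyes belonged to birds that wore a lens on the other eye. The age label reads postnatal day 3 for both groups. The hour of collection is not among the labels. Nor do they tie each library to a bird of its own, so p-values measure the spread between these samples. A difference between the groups in the hour of collection or in handling could not be told apart from the lens. Replicate numbers run from 46 to 55 in lens and from 57 to 65 in control retinas. Any effect of an order behind these numbers could not be told apart from the group either. Within each group PER2 tended to be lower at higher numbers, as given below.

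In the vertebrate clock, the activators CLOCK or NPAS2 pair with BMAL proteins (ARNTL and ARNTL2 in the table) and switch on genes that carry E-box sequences. Among these are the PER and CRY genes, whose protein products assemble, return to the nucleus and block the activators, and the BHLHE40 and BHLHE41 genes, whose products compete for the same E-boxes. Levels of these transcripts therefore cycle over the day. The chick retina holds its own clock, in photoreceptors and in inner retinal neurons, and in the bird retina PER2 is also known to respond to light. A minus lens moves the image plane behind the retina, and the chick eye grows longer in response.

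Libraries of total RNA held 32.3 to 42.6 M reads each, of which 31.7% to 34.2% fell in the listed genes. Values are in CPM, reads per 1 M reads of that total. Mean depth was 35.6 M reads in control (SD 2.31, n = 7) and 39.1 M in lens libraries (SD 3.26, n = 7). The mean share in listed genes was 33.4% in control and 32.6% in lens libraries, and results with other scalings are given below. Marker lists were used to check the tissue label. Summed photoreceptor markers lay between 1519 and 1973 CPM in control and between 1408 and 2047 CPM in lens retinas, with 8 of 10 markers in the table, 1 of them higher and 2 lower in lens retinas by the test below. Of 10 markers of the retinal pigment epithelium 7 stayed under 1 CPM in every library, and their sum was 7.14 to 9.998 CPM in control and 4.73 to 12.1 CPM in lens retinas. All 5 lens crystallins stayed under 1 CPM in every library. Markers of pecten and oligodendrocytes summed to 114 to 221 CPM in control and 110 to 202 CPM in lens retinas. Those of choroid and vessels summed to 16.2 to 24.9 CPM in control and 13.8 to 23.8 CPM in lens retinas. Amacrine cell markers summed to 500.4 to 558 CPM in control and 458 to 498 CPM in lens retinas, with 3 of 6 lower. Of 5 tested ganglion cell markers 1 was lower, and no bipolar, horizontal or Muller glia marker passed. Among all genes tested the share called lower was 1.84%. The part of these marker differences in the results was not tested. Transcripts of the W chromosome were nearly missing in 3 libraries, control 65 and lens 48 and 55.

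Of the 6 repressors 4, namely PER2, PER3, CRY2 and BHLHE41, were lower in lens retinas, and CRY1 and BHLHE40 did not pass the test. PER3 was lower by 41.2% of its mean CPM, BHLHE41 by 28.2%, PER2 by 26.3% and CRY2 by 14.8%. In the period family both genes fell. In the cryptochrome and BHLHE families 1 gene of the pair was called lower. A difference in change between BHLHE41 and BHLHE40 was not shown (exact permutation p = 0.0728 for their ratio). For the cryptochromes the call rests on CRY2. Its call was lost with the 4 other scalings tried (adjusted p = 0.0579 to 0.0808). It was also lost when each gene was tested by exact permutation instead (adjusted p = 0.0519). With 7 against 7 samples that exact test can pass only genes whose groups do not overlap (exact permutation adjusted p = 0.0382), and the groups of CRY2 overlapped. The groups were compared with limma on log2(CPM + 1) over 11132 genes, with Benjamini-Hochberg adjustment over all of them and a threshold of 0.05. Of all genes tested, 1.84% were called lower and 0.916% higher. In all, 205 genes were called lower and 102 higher in lens retinas. Without lens retina 55 they were 324 and 110. The balance depended on the scaling, with 111 lower and 150 higher under trimmed-mean (TMM) factors and 107 lower and 158 higher under median-of-ratios factors. Quantile normalization gave 122 lower and 157 higher, and scaling listed genes to one sum gave 129 lower and 147 higher. The median log2 fold change of the 6 repressors was -0.31, beside -0.04 for all genes tested. In whole retina, fewer cells of a type and less RNA per cell cannot be told apart.

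**Figure D1:**
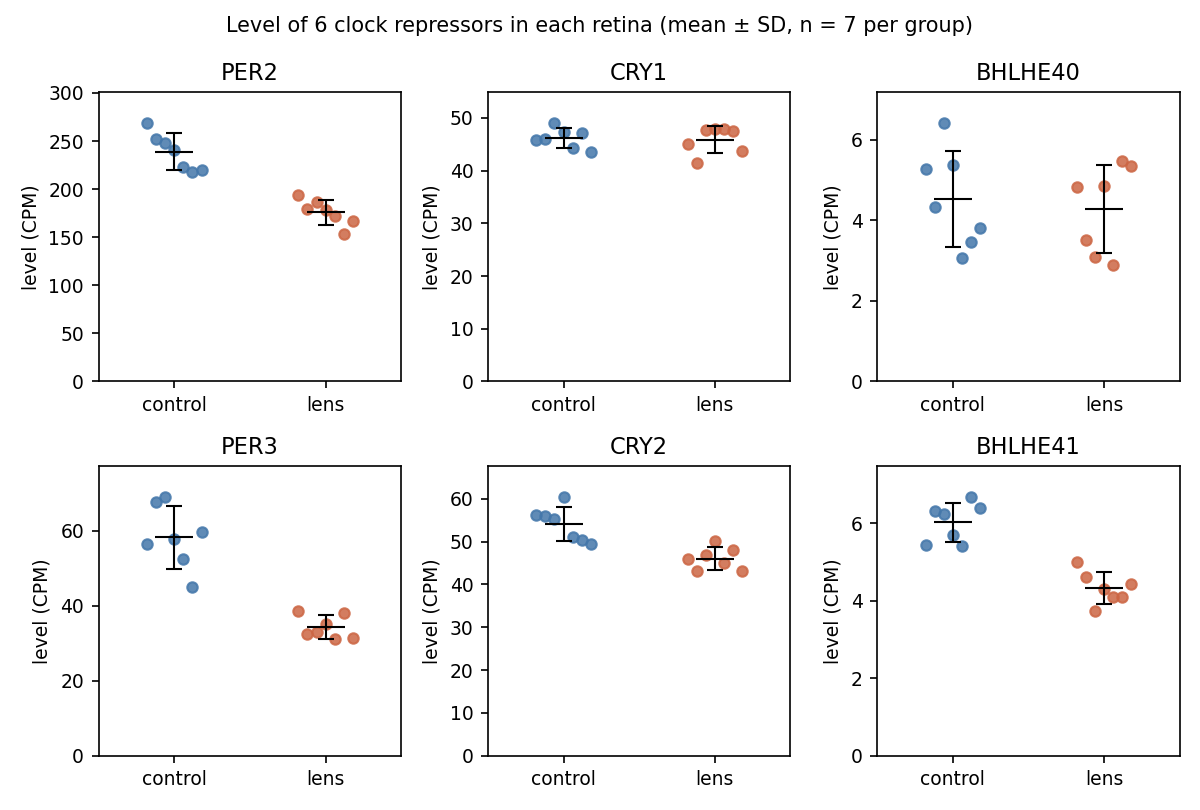
Level in CPM (vertical axes, from 0) of the 6 repressors in each of 7 control and 7 lens retinas, with the mean ± SD as a black cross and bar. For PER2, PER3 and BHLHE41 every lens point lies below every control point, while the points of CRY1 and BHLHE40 overlap.

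PER3 encodes a period protein that binds cryptochromes and casein kinase 1 and, in mammals, is needed less for rhythm than the other period proteins. The gene lies at 291189 to 310410 on the minus strand of chromosome 21, and no other gene of the table overlaps it. Coordinates are as deposited, for which the submitters' processing notes name the build GRCg6a, and chromosomes are named through the GRCg7b gene table of RefSeq. It measured 44.9 CPM in the lowest control retina (64), 57.8 CPM at the median and 68.9 CPM in the highest (59). In lens retinas it measured 31.1 CPM at the lowest (53), 33.0 CPM at the median and 38.7 CPM at the highest (46). The groups did not overlap, and 6.24 CPM lay between the highest lens and the lowest control retina. Groups did not overlap in the lower direction for 0.97% of all genes tested. On average 58.2 CPM in control (SD 8.36, n = 7) stood against 34.2 CPM in lens retinas (SD 3.11, n = 7), and the log2 fold change was -0.74 ± 0.082 (SE; limma adjusted p = 7.78e-05). By p-value PER3 ranked 8 among the genes tested.

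PER2 is the period gene whose transcript light induces in birds, and in mammals its protein holds a central place in the repressor complex. It lies on chromosome 9 (5654602 to 5695660, minus strand) and overlaps no listed gene. Control retinas measured 218 CPM at the lowest (64), 241 CPM at the median and 269 CPM at the highest (57). Lens retinas measured 154 CPM at the lowest (54), 178 CPM at the median and 194 CPM at the highest (46). Again no lens retina reached the control range, with a gap of 24.0 CPM between the groups. Within each group PER2 tended to be lower at higher replicate numbers. It measured 269 CPM in control 57 and 220 CPM in control 65, and 194 CPM in lens 46 and 167 CPM in lens 55. This trend was not tested. The log2 fold change was -0.44 ± 0.056 (SE; limma adjusted p = 0.000213), and PER2 ranked 24 by p-value.

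CRY1 encodes a cryptochrome, a flavoprotein relative of the photolyases that in mammals is a strong repressor of CLOCK and BMAL. It lies on chromosome 1 (53592038 to 53626355, minus strand). Its levels lay in narrow ranges that largely overlapped between the groups. Control retinas measured 43.6 CPM at the lowest, 46.1 CPM at the median and 49.0 CPM at the highest, and lens retinas 41.4, 47.5 and 48.001 CPM. The log2 fold change was -0.01 with a 95% interval from -0.10 to 0.08 (limma adjusted p = 0.938). Its sign was positive with the 4 other scalings tried, where the log2 fold change was at most 0.03.

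CRY2, the other repressor cryptochrome, lies on chromosome 5 (24181304 to 24201630, minus strand), 67 bases from SLC35C1 on the same strand, whose mean was 4.98 CPM in control against 4.50 CPM in lens retinas. Control retinas measured 49.4 CPM at the lowest (65), 55.2 CPM at the median and 60.4 CPM at the highest (62). Lens retinas measured 43.1 CPM at the lowest (47), 45.97 CPM at the median and 50.2 CPM at the highest (51). Below every control lay 6 of the 7 lens retinas, and lens 51 lay 0.853 CPM above the lowest of them. The log2 fold change was -0.23 ± 0.050 (SE; limma adjusted p = 0.0176). This call depended on the scaling. With TMM factors the adjusted p was 0.0699, and median-of-ratios factors gave 0.0761. It was 0.0808 under quantile normalization and 0.0579 when listed genes were scaled to one sum.

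A further cryptochrome, CRY4, is known from birds and is not counted among the 6. It lies on chromosome 26 and averaged 14.3 CPM in control (SD 2.25, n = 7) against 13.9 CPM in lens retinas (SD 1.94, n = 7). Its log2 fold change was -0.03 ± 0.099 (SE; limma adjusted p = 0.912). Of the 3 cryptochrome genes, CRY2 was thus the 1 that passed, though not with the 4 other scalings. The 95% interval of CRY4, from -0.24 to 0.18, holds the value found for CRY2 (-0.23).

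BHLHE41 (DEC2) lies on chromosome 1 (67586363 to 67590685, minus strand) and was measured with 141 to 254 reads a library. Control retinas measured 5.42 CPM at the lowest (63), 6.24 CPM at the median and 6.67 CPM at the highest (64). Lens retinas measured 3.75 CPM at the lowest (48), 4.29 CPM at the median and 5.00 CPM at the highest (46). All 7 lens retinas lay below every control, though by as little as 0.423 CPM. The log2 fold change was -0.40 ± 0.068 (SE; limma adjusted p = 0.00249), a scale that understates changes of low genes, and it was -0.47 with a pseudocount of 0.1.

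BHLHE40 (DEC1), which in mammals is also induced by light, hypoxia and growth signals, lies on chromosome 12 (18986975 to 18991322, plus strand). It was the most variable of the 6. Control retinas measured 3.05 CPM at the lowest (63), 4.33 CPM at the median and 6.41 CPM at the highest (59), and lens retinas 2.88 (53), 4.83 and 5.47 CPM (54). The groups overlapped over most of their range. Its log2 fold change of -0.07 had a 95% interval from -0.38 to 0.25 (limma adjusted p = 0.877), an interval that holds the value found for CRY2 as well as a rise.

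**Figure D2:**
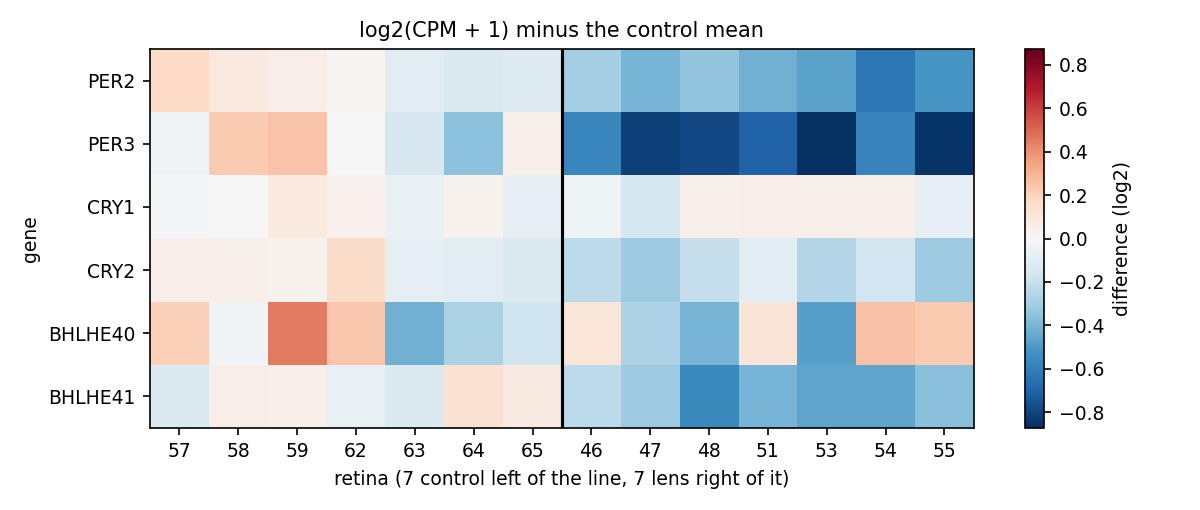
Difference of log2(CPM + 1) from the control mean (colour, red above and blue below) for the 6 repressors (rows) in each retina (columns, numbered as in the labels). PER2, PER3, CRY2 and BHLHE41 are below the control mean in all 7 lens retinas, and BHLHE40 varies between retinas of both groups.

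Spread within a group differed between the 6 genes. The coefficient of variation of CPM (SD over mean) in control retinas was 4.05% for CRY1, 7.32% for CRY2, 8.06% for PER2, 8.30% for BHLHE41, 14.4% for PER3 and 26.5% for BHLHE40. In lens retinas it was 5.60% for CRY1, 5.60% for CRY2, 7.58% for PER2, 9.40% for BHLHE41, 9.08% for PER3 and 25.6% for BHLHE40. Counting of reads alone gives 7.88% for BHLHE40 and 6.84% for BHLHE41 in control, from means of 161 and 214 reads. The spread of BHLHE41 was thus close to counting error, and that of BHLHE40 was well above it. PER2 rested on a mean of 8482 reads in control, where counting alone gives 1.09%, and PER3 on 2064 reads, where it gives 2.21%.

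Control 63 lay below its group's median for all 6 genes, and control 59 lay above its group's mean of log2(CPM + 1) for all 6. Every other retina lay above its group's mean for some of the 6 and below it for others. Control 64 had the lowest PER2 and PER3 of its group and the highest BHLHE41. Lens 54 had the lowest PER2 of all 14 retinas, and its PER3, at 38.1 CPM, was close to the highest lens value. Lens 46 had the highest PER2, PER3 and BHLHE41 of the lens group, and in none of these did it reach the lowest control.

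Whether genes of 1 family changed alike was tested with the log2 ratio of their CPM + 1 values within each library. A factor common to a library cancels in this ratio except for its part in the added 1, which matters more for low genes. The difference between groups in the ratio of BHLHE41 to BHLHE40, both low, moved from -0.33 to -0.39 with a pseudocount of 0.1. The comparison covered 3 ratios, with an exact two-sided permutation test over 3432 assignments of samples and adjustment over the 3. The log2 ratio of PER3 to PER2 went from -2.03 ± 0.173 (SD, n = 7) in control to -2.33 ± 0.166 (SD, n = 7) in lens retinas, a difference of -0.30 (exact permutation p = 0.00932, adjusted p = 0.0140), so PER3 fell further than PER2. In 6 of 7 lens retinas the ratio was under the lowest control, lens 54 being the exception at -1.98. Without the 3 libraries that lack W transcripts the difference was -0.24 (exact permutation p = 0.0584). Titles carry a letter, L or R, that the labels do not explain. Among libraries with the letter L the difference was -0.22 (exact permutation p = 0.135) and among those with R it was -0.43 (exact permutation p = 0.1, the smallest that 2 against 3 samples allow).

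The ratio of CRY2 to CRY1 went from 0.22 ± 0.086 (SD, n = 7) to 0.01 ± 0.052 (SD, n = 7), a difference of -0.22 (exact permutation p = 0.000583, the smallest that 7 against 7 allow; adjusted p = 0.00175). All 7 lens retinas, at -0.09 to 0.06, lay below every control, at 0.09 to 0.34. CRY2 and CRY1 therefore differed in their change, and the difference was also -0.22 with pseudocounts of 0.5 and 0.1, whereas the call of CRY2 alone depended on scaling. The difference was -0.25 among libraries with the letter R (exact permutation p = 0.1, again the smallest possible) and stayed past the threshold in the other alternatives tried.

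The ratio of BHLHE41 to BHLHE40 went from 0.37 ± 0.338 (SD, n = 7) to 0.04 ± 0.286 (SD, n = 7), a difference of -0.33 that did not pass (exact permutation p = 0.0728, adjusted p = 0.0728). Only 3 of 7 lens retinas lay below every control. It passed when control 57, control 59 or lens 53 was left out (exact permutation p = 0.0484, 0.0390 and 0.0443), and it ranged up to 0.139 when another library was left out. A difference in change between these paralogs was thus not shown at the spread of BHLHE40.

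**Figure D3:**
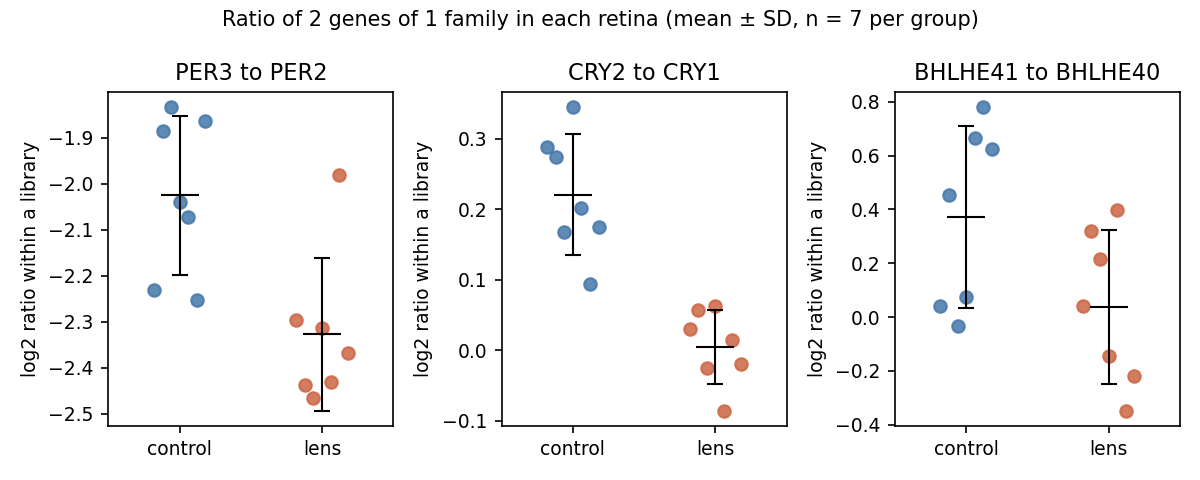
Log2 ratio of 2 genes of 1 family within each library (vertical axes, not from 0) for 7 control and 7 lens retinas, with mean ± SD in black. The ratio of CRY2 to CRY1 separates the groups fully, and for PER3 to PER2 lens retina 54, at -1.98, sits among the controls.

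The other clock genes were described from lists of 46, of which 44 had a row and 38 were tested. Of these 38, 6 were higher, 3 were lower and 29 did not pass, with a median log2 fold change of -0.03, beside -0.04 for all genes tested. Over all genes tested, the share called higher was 0.916% and the share called lower 1.84%. Of the 4 activators of the loop 3 rose and none fell. ARNTL, the BMAL1 gene, rose from a range of 20.1 to 36.8 CPM in control to 44.4 to 52.999 CPM in lens retinas, with no overlap. Among the 11132 genes tested, 62 passed as higher by exact permutation, which can pass only genes whose groups do not overlap. ARNTL2 (BMAL2) had a log2 fold change of 0.56 ± 0.059 (SE; limma adjusted p = 7.78e-05), and NPAS2 had 0.34 ± 0.075 (SE; limma adjusted p = 0.0171). NPAS2, whose groups overlapped and so could not pass, had an adjusted p of 0.0519 by exact permutation. CLOCK averaged 109 CPM in control (SD 6.05, n = 7) against 115 CPM in lens retinas (SD 2.66, n = 7) (limma adjusted p = 0.386).

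Among 3 tested nuclear receptors of the second loop, NR1D2 (REV-ERB beta, a repressor of ARNTL) fell, with a log2 fold change of -0.22 ± 0.045 (SE; limma adjusted p = 0.0110). RORA, an activator at the same sites, had -0.10 ± 0.039 (SE; limma adjusted p = 0.216), and RORB did not pass. NR1D1 was under 1 CPM and was not tested. Of 3 tested bZIP factors, the repressor NFIL3 rose, the activator HLF fell by 0.20 on the log2 scale (limma adjusted p = 0.00480) and TEF did not pass. Of 4 tested melatonin genes, TPH1, which opens serotonin synthesis, rose, and the melatonin enzymes AANAT and ASMT did not pass.

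Of 17 tested genes for enzymes that act on PER and CRY proteins, 1 rose, 1 fell and 15 did not pass, with a median log2 fold change of -0.05. FBXL21, an F-box protein that in mice binds cryptochromes and marks them with ubiquitin, rose from an average of 24.7 CPM in control (SD 2.39, n = 7) to 34.5 CPM under the lens (SD 2.55, n = 7). Its log2 fold change was 0.47 ± 0.063 (SE; limma adjusted p = 0.000264). Its lowest lens retina, at 29.6 CPM, lay above the highest control, at 27.3 CPM. PPP1CC, a catalytic subunit of protein phosphatase 1, which in mammals removes phosphate from PER proteins, averaged 79.0 CPM in control (SD 2.67, n = 7) and fell to 67.1 CPM under the lens (SD 5.68, n = 7; limma adjusted p = 0.0119). It did not pass under TMM (adjusted p = 0.0523), median-of-ratios (adjusted p = 0.0551) or quantile scaling (adjusted p = 0.0661). By exact permutation, which a gene with overlapping groups cannot pass here, its adjusted p was 0.0519. The casein kinase genes CSNK1D and CSNK1E, whose products phosphorylate PER, did not pass (limma adjusted p = 0.555 and 0.821). None of 7 tested partners of the repressor complex or of CLOCK passed, TIMELESS, TIPIN, CIPC, SIRT1, NONO, SFPQ and DDB1. In limma 1 of these 7 had an unadjusted p under 0.05, beside 1796 of all 11132 genes tested, a similar share.

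**Figure D4:**
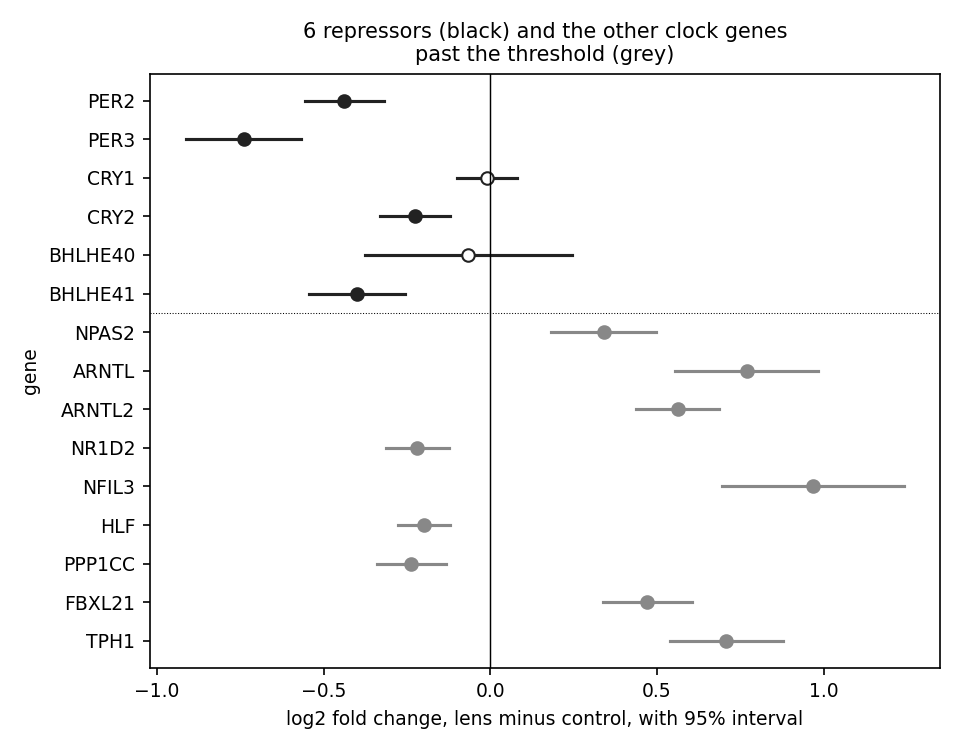
Log2 fold change of lens against control with its 95% interval (horizontal axis) for the 6 repressors in black and, in grey, the 9 other clock genes past the threshold. Filled points passed the threshold and open points did not, and FBXL21, NPAS2, ARNTL, ARNTL2, NFIL3 and TPH1 lie to the right of 0.

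Within a group, the repressors were set against each other and against ARNTL and NFIL3, in 54 relations over 7 retinas each. None passed adjustment over the 54 (smallest adjusted p = 0.305, exact permutation), and 5 had an unadjusted p under 0.05. Of these 5, 4 were in control retinas and paired a repressor with ARNTL or NFIL3, all negative. PER3 and ARNTL had a Pearson r of -0.88 (exact permutation p = 0.0113, adjusted p = 0.305) and a Spearman rho of -0.86 (exact permutation p = 0.0238, adjusted p = 0.461). Without the 2 retinas farthest from the PER3 median r was -0.65. BHLHE40 and ARNTL had r = -0.91 (exact permutation p = 0.00714, adjusted p = 0.305) and rho = -0.82 (exact permutation p = 0.0341, adjusted p = 0.461), with r = -0.82 without the 2 farthest. PER2 and ARNTL had r = -0.81 (exact permutation p = 0.0315, adjusted p = 0.411) and rho = -0.82 (exact permutation p = 0.0341, adjusted p = 0.461), and r was -0.86 without the 2 farthest. PER2 and NFIL3 had r = -0.84 (exact permutation p = 0.0240, adjusted p = 0.411) and rho = -0.86 (exact permutation p = 0.0238, adjusted p = 0.461), and r was -0.94 without the 2 farthest. In lens retinas r was -0.51 for PER3 and ARNTL, -0.52 for BHLHE40 and ARNTL, -0.39 for PER2 and ARNTL and -0.05 for PER2 and NFIL3. In control retinas ARNTL and NFIL3 tended to be higher, and PER2, CRY2 and BHLHE40 lower, at higher replicate numbers. BHLHE40 measured 5.26 CPM in control 57 and 3.80 CPM in control 65, and CRY2 56.2 and 49.4 CPM. NFIL3 measured 23.5 CPM in control 57 and 38.4 CPM in control 65, and ARNTL 24.4 and 30.1 CPM. NFIL3 lies on chromosome Z, and control 65 is the control in which W transcripts were nearly missing. Among lens retinas NFIL3 was highest in lens 55 (68.8 CPM) and lens 48 (61.7 CPM), which nearly lacked W transcripts too. The part of replicate order and of W transcripts in these relations was not tested. The remaining relation was CRY1 with CRY2 in lens retinas, at r = 0.78 (exact permutation p = 0.0381, adjusted p = 0.411) and rho = 0.75 (exact permutation p = 0.0663, adjusted p = 0.596). Its r was 0.38 without the 2 retinas farthest from the CRY1 median. Leaving these out also narrows the range of CRY1, so this value does not show what the relation rested on.

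**Figure D5:**
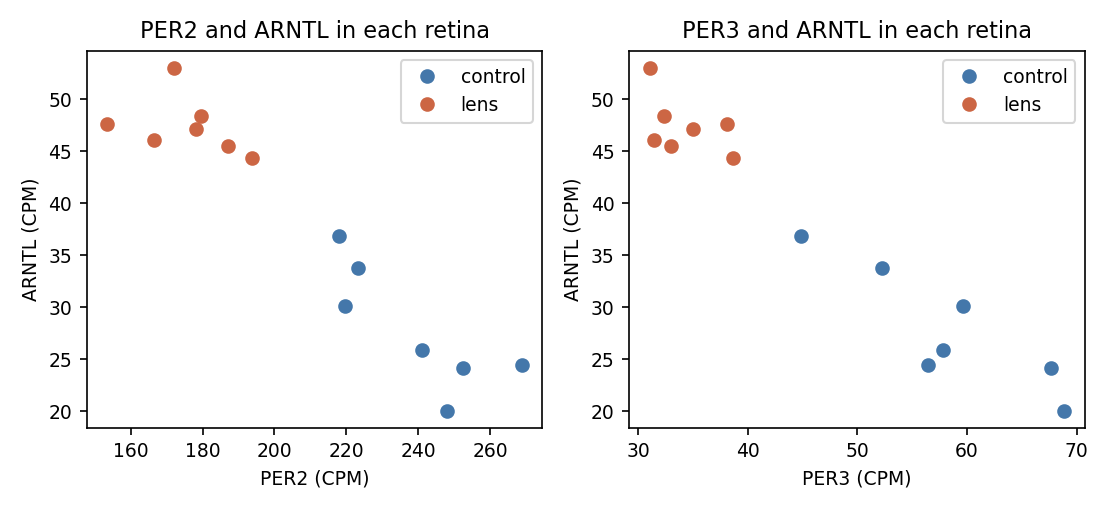
ARNTL (vertical axes, CPM, not from 0) against PER2 and PER3 (horizontal axes, CPM, not from 0) in each retina. In control retinas those with less PER2 and PER3 had more ARNTL (r = -0.81 and -0.88, neither past adjustment), and the lens retinas form a separate group with ARNTL at 44.4 to 52.999 CPM. Within the lens group r was -0.39 and -0.51.

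Likeness to other genes was measured over 14 libraries as Pearson r of log2(CPM + 1) after each group's mean was subtracted, among 7261 tested genes of at least 5 CPM. The values are the extremes of many and are given with no test. PER2 was most like AHSA1 (0.89) and the immediate early gene EGR1 (0.86) and most opposite to CCSER2 (-0.91). PER3 was most like RRAGA (0.79) and VRK3 (0.79) and most opposite to NOP58 (-0.86). CRY1 was most like AADACL4L3 (0.86) and BTF3L4 (0.85) and most opposite to RCOR3 (-0.76). CRY2 was most like MCL1 (0.86) and RPL7A (0.86) and most opposite to CDH7 (-0.90). BHLHE40 was most like PASD1 (0.86) and SNX12 (0.84) and most opposite to ACSL3 (-0.83). BHLHE41 was most like TULP4 (0.81) and POU4F1 (0.78) and most opposite to ERLIN1 (-0.90). No gene was named for more than 1 repressor. Of the genes named, CCSER2 (log2 fold change 0.35, limma adjusted p = 0.000213) and ACSL3 (0.25, limma adjusted p = 0.00204) were themselves higher in lens retinas. TULP4 (-0.15, limma adjusted p = 0.0315) was lower, and the others did not pass.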

How the data were processed

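Per the labels' protocols, libraries were made from total RNA with a stranded kit after depletion of ribosomal RNA. STAR, Partek and the build GRCg6a are named in the submitters' processing notes. How reads were counted, and with which strand setting, is not given in the sources used here, and no other listed gene overlaps any of the 6. The authors deposited 1 table of CPM, with 0.0001 in every entry that was subtracted here. Depth came from the step between low values, of which 93.6% to 94.8% were whole reads within 0.02 of a read, so no count model was used. Read numbers of a gene are CPM times that depth.

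A gene entered the test when 7 or more of the 14 samples reached 1 CPM. The test was limma (version 3.58.1, R version 4.3.3) on log2(CPM + 1), with an intensity trend and no covariate. The test was checked on simulated data with the same spread for every gene and no scaling difference between libraries. That check therefore does not cover genes of unlike spread or the choice of scaling. Family ratios and correlations were tested by exact permutation in Python version 3.11.15. Figures used matplotlib version 3.10.9. Groups came from the sample titles. Each deposited chromosome sequence was given the chromosome name that most of its gene symbols carry in the RefSeq table of assembly GRCg7b, and coordinates are as deposited.

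The 6 genes, the other clock lists and the tests were chosen with earlier results of these data known. Genes were named where they are 1 of the 6, were past the threshold in a clock list, or had the 2 highest or the lowest likeness to 1 of the 6. CRY4 and the clock genes that did not pass were named outside this rule. Alternatives covered pseudocount, filter, 4 scalings, prior, array and voom weights, an exact test per gene, thresholds, covariates and subsets of libraries. The list of blood markers had no row under its symbols. Promoter and protein sequences were not analysed here. Some genes of the clock lists are not reported here, and counts cover all genes of a list.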

Additional observations from a re-analysis of the deposited data

Results flagged for a closer look

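In 36 groups of 7 values examined for a sample far from the rest, 2 had one, where chance gives about 1 in 20. The log2 ratio of PER3 to PER2 in lens retina 54 was -1.98, and the next highest lens value was -2.30. This retina had the lowest PER2 of the 14. ARNTL2 in control retina 63 measured 41.6 CPM, and the next highest control measured 36.4 CPM.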

How the results depend on the processing

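No paired analysis was possible because the groups share no replicate number. PER2, PER3 and BHLHE41 stayed lower and past the threshold in all alternatives that tested them and all leave-one-out fits except within letters: among R libraries (2 control, 3 lens) none passed (-0.46, -0.89 and -0.35), and among L libraries BHLHE41 did not (-0.43, adjusted p = 0.0586). The call of CRY2 was lost with TMM factors (-0.19), median-of-ratios factors (-0.18), quantile normalization (-0.19), a common sum over the listed genes (-0.19), the exact test per gene (-0.23), L libraries (-0.18) and R libraries (-0.28). The exact test per gene can pass only genes whose groups do not overlap. CRY1, never past the threshold, changed sign with TMM (0.029), median-of-ratios (0.032), quantile (0.029), a common sum (0.022) and L libraries (0.014), and BHLHE40 did with R libraries (0.045). Leaving out 1 library gave -0.46 to -0.41 for PER2, -0.80 to -0.70 for PER3, -0.024 to 0.014 for CRY1, -0.25 to -0.20 for CRY2, -0.14 to 0.0095 for BHLHE40 and -0.43 to -0.37 for BHLHE41. The cause of these losses was not tested. A subset by letter also holds fewer samples, and the part of this was not tested either.

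The ratio of PER3 to PER2 did not pass among L libraries (-0.22), R libraries (-0.43) or without the 3 libraries lacking W transcripts (-0.24), nor that of CRY2 to CRY1 among R libraries (-0.25). Leave-one-out ranges were -0.36 to -0.27, -0.24 to -0.19 and, for BHLHE41 to BHLHE40, -0.40 to -0.27.

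Genes called higher (102) and lower (205) moved to 57 and 75 at an adjusted p under 0.01, to 62 and 108 with the exact test, to 36 and 63 among L and 1 and 4 among R libraries, to 158 and 107 with median-of-ratios factors and to 157 and 122 after quantile normalization. Lower genes were 374 at an adjusted p under 0.1, 111 with TMM factors, against 150 higher, and 129 with a common sum, against 147 higher. Leave-one-out gave 83 to 110 higher and 146 to 324 lower. Calls in the other clock lists, 6 higher and 3 lower, were 0 and 0 among R libraries, 5 and 0 among L libraries (NPAS2, adjusted p = 0.153, was lost), 5 higher with the exact test, and 2 lower with TMM, median-of-ratios and quantile scaling. With the exact test the lower calls were still 3, but CSNK2A2 (exact permutation adjusted p = 0.0382, limma adjusted p = 0.0652) took the place of PPP1CC. Leaving out 1 library gave 6 higher and 3 to 4 lower.

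With a filter of 10 CPM, BHLHE40 and BHLHE41 were not tested. These genes had 108 to 254 reads a library. Counting error is close to the spread of BHLHE41, and BHLHE40 is limited by its spread between retinas.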
